A study of Mus musculus with 8 samples.

Results

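The 10 genes described here encode tumor necrosis factor (Tnf), the TNF receptors Tnfrsf1a and Tnfrsf1b, the TWEAK receptor Tnfrsf12a, and a core of the NF-κB system, made up of the inhibitors Tnfaip3 and Nfkbia, the nuclear IκB protein Nfkbiz and the subunit genes Nfkb1, Nfkb2 and Relb. They were picked by symbol, and all 10 are among the 54532 genes of the deposited table. Their mRNA was measured in livers of 4 METTL3-HKD and 4 METTL3-Flox mice after 1 h of partial warm ischemia and 6 h of reperfusion. METTL3-HKD mice are written METTL3 flox/-; Alb-iCre in the study, which describes them as heterozygous, and METTL3-Flox mice are METTL3 flox/flox mice of the same litters. Cre was driven by albumin sequences, and the study describes the knockdown as specific to hepatocytes. The RNA came from whole liver, so that the levels of endothelial, Kupffer and infiltrating cells are included. No unclamped liver was analysed here, so a level cannot be compared with the uninjured state. The sex and age of these mice are not given in the sources used here.

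TNF is a cytokine released mainly by macrophages and other leukocytes, and it acts through TNFR1 (Tnfrsf1a), present on most cells, and TNFR2 (Tnfrsf1b), found largely on leukocytes and endothelium. Receptor engagement activates the IKK complex, which marks IκBα (Nfkbia) for degradation and frees p50 (from Nfkb1) and p65 to enter the nucleus. A slower arm through NIK processes p100 (from Nfkb2) to p52, the partner of RelB. Several of the genes that NF-κB switches on end the signal, among them Nfkbia and Tnfaip3, whose product A20 edits ubiquitin chains in the receptor complex. Tnfrsf12a (Fn14) is a small receptor for TWEAK that is induced in injured and regenerating liver. In reperfused liver this system is known both for inflammation and for the survival of hepatocytes.

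The κB consensus, the sequence to which NF-κB dimers bind, was searched on both strands of the 250 bases before each gene start in RefSeq (GRCm38.p6). Windows were found for 7 of the 10 genes, and those of 3 genes (Nfkb2, Nfkbia and Tnfaip3) held the consensus, against 8.23% of the 27025 genes with a window. By windows, it was in 5 of the 10 of these genes and in 7.25% of all 32851. Windows of Nfkbiz, Nfkb1 and Relb were not used here. The windows below show these 3 genes, with overlapping matches merged and set in capitals, and that of Tnfrsf12a, which had the largest difference between groups and holds no match. The last base of each line is the base just before the start.
Nfkb2, chr19:46304487-46304736, plus strand: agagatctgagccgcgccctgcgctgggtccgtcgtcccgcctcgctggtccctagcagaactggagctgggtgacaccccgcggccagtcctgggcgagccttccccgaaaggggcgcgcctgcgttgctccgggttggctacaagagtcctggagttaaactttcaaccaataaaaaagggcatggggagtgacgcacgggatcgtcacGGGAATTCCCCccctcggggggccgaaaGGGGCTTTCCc
Nfkbia, chr12:55492648-55492897, minus strand: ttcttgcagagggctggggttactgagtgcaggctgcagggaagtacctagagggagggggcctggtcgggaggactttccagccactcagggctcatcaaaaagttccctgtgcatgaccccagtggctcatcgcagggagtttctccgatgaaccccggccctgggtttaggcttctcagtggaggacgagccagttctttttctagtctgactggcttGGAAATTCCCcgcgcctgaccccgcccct
Tnfaip3, chr10:19015411-19015660, minus strand: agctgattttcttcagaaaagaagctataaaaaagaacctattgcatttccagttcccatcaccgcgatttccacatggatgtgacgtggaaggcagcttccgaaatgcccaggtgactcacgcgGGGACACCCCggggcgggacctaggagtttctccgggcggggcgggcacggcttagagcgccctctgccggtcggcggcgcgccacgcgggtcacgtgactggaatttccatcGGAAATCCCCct
Tnfrsf12a, chr17:23677450-23677699, minus strand: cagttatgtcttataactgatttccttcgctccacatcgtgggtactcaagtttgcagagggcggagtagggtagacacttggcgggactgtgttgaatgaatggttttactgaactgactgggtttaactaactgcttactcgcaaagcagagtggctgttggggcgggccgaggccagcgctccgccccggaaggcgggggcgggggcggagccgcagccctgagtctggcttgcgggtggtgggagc
Nfkb2 held 2 matches, which end 28 bases and 1 base before the start, Nfkbia held 1, which ends 19 bases before it, and Tnfaip3 held 2, which end 115 and 2 bases before it. These starts are those of RefSeq, and for some genes they differ from the coordinates of the deposited table. The Tnfaip3 window lies almost wholly within the gene as listed there, which reaches 19015657 on the minus strand. The Tnfrsf1a window lies within its listed gene, and that of Tnfrsf12a overlaps its gene in part. RefSeq lists further starts, of which 2 of Nfkb2 held 1 match each and 1 of Tnfaip3 held none. The windows of Tnf, Tnfrsf1a and Tnfrsf1b held no match, which says only that these letters are not within 250 bases of the start.

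The authors deposited FPKM, the reads of a gene per kilobase of its length scaled by an effective library size. Multiplied by gene length, every value was a whole multiple of 1 unit per library, so the reads could be rebuilt. The METTL3-HKD livers held 15961479 to 18434488 reads on genes and the METTL3-Flox livers 15861245 to 17262991, whereas the effective library sizes did not overlap (18063236 to 20114825 against 14210943 to 16158035). Differences were tested with limma on log2(FPKM + 0.1) over the 16645 genes whose mean reached 0.1 FPKM, a scale that understates the change of low genes. Scaling to the reads on genes instead moved the median of all genes from -0.00 to 0.19 on the log2 scale. Mettl3, the targeted gene, had 1.33 ± 0.181 FPKM (SD, n = 4) in METTL3-HKD and 1.499 ± 0.282 FPKM (SD, n = 4) in METTL3-Flox livers (limma adjusted p = 0.556), a value over the whole gene, of which Cre deletes 1 exon, so it did not check the labels. The labels give no batch, and p-values rest on the spread between mice.

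All 10 genes passed the filter and all 10 had a positive log2 difference between METTL3-HKD and METTL3-Flox livers, against 49.7% of all tested genes. The adjusted p was under 0.05 for 5 of them (Tnf, Tnfrsf12a, Tnfaip3, Nfkb1 and Nfkb2), against 9.05% of all tested genes called higher. Tnf, Tnfrsf12a and Tnfaip3 also passed the threshold of 1 on the log2 scale, against 4.70%. The first count was 3 without METTL3-Flox liver 2 or liver 4 and 9 without METTL3-HKD liver 3. Of all tested genes, 943, 924 and 1659 were called higher in these 3 settings, against 1506 with all livers. The second count was 5 without METTL3-HKD liver 3 or METTL3-Flox liver 1 and 1 with a pseudocount of 1 FPKM. The same 5 genes showed no overlap between the groups, with the METTL3-HKD livers on top, against 12.7% of all tested genes. The median log2 difference was 0.86 over the 10 genes and -0.00 over all tested genes. In whole liver, more cells of a type and more RNA per cell cannot be told apart. When the values were scaled to the reads on genes, 8 of the 10 genes passed, while 2303 of all 16645 tested genes were called higher, against 1506 without this scaling. Tnfrsf1a (0.27) lay closest to the shift of 0.19 that this scaling gave the median gene.

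**Figure D1:**
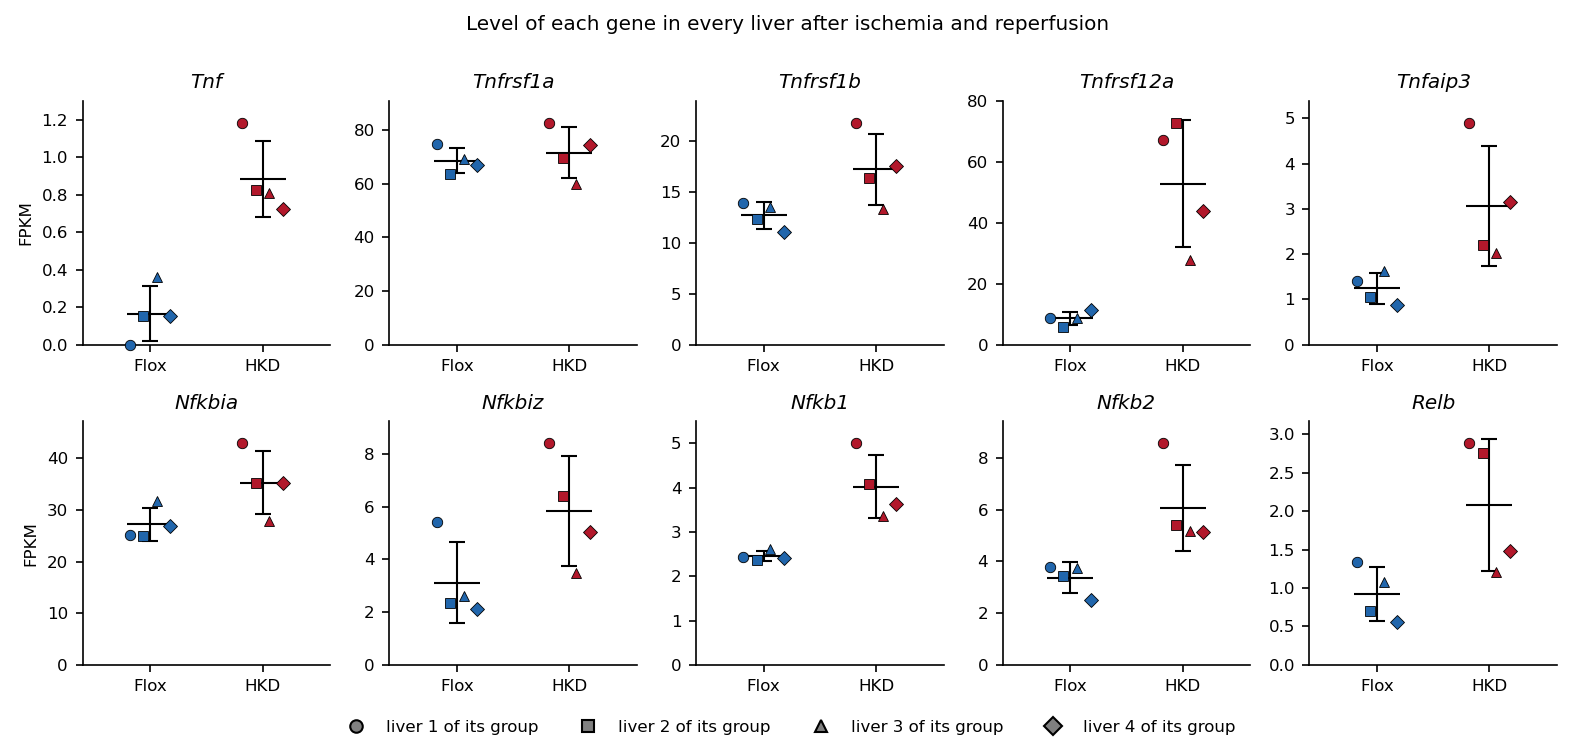
FPKM of each of the 10 genes (y axis, from 0) in METTL3-Flox (blue) and METTL3-HKD (red) livers, 1 symbol per liver, with the mean and SD of 4 livers as a bar. METTL3-HKD liver 1 was the highest of its group in 9 of the 10 genes, and the groups are separate for Tnf, Tnfrsf12a, Tnfaip3, Nfkb1 and Nfkb2.

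The ligand Tnf (ENSMUSG00000024401) lies on chromosome 17 from 35199381 to 35202007 (GRCm38, minus strand). It had 1.18, 0.825, 0.811 and 0.722 FPKM across METTL3-HKD livers 1 to 4 and 0, 0.151, 0.361 and 0.152 FPKM across METTL3-Flox livers 1 to 4. It was the lowest of the 10 genes in both groups, and every METTL3-HKD liver was above every METTL3-Flox liver. Behind these levels stood 22 to 39 reads in a METTL3-HKD liver but 0 to 9 in a METTL3-Flox liver, so counting error is large in the latter. The mean was 0.885 ± 0.204 FPKM against 0.166 ± 0.148 FPKM (SD, n = 4), 5.33 times as high. The log2 difference was 2.06 (SE 0.423, limma adjusted p = 0.0158). With a pseudocount of 1 FPKM it was 0.70, and it stayed past the threshold in all 14 alternatives in which Tnf was tested. Tnf sits between the lymphotoxin genes, which encode further members of its family. Ltb, from 35194439 to 35196320, rose from 5 to 13 reads in METTL3-Flox livers to 26 to 61 reads in METTL3-HKD livers, a log2 difference of 1.93 (limma adjusted p = 0.00765), while Lta, from 35203165 to 35205351, had at most 1 read in any liver and was not tested.

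The receptor genes differed among themselves. Tnfrsf1a (ENSMUSG00000030341), on chromosome 6 from 125349362 to 125362484, had the highest level of the 10 genes in both groups. It had 82.6, 69.5, 59.8 and 74.5 FPKM across METTL3-HKD livers 1 to 4 and 74.6, 63.5, 69.3 and 67.0 FPKM across METTL3-Flox livers 1 to 4. The METTL3-Flox range lay within the wider METTL3-HKD range, with a log2 difference of 0.05 (95% interval -0.20 to 0.31, limma adjusted p = 0.782), on 2658 to 4304 reads per liver. Without METTL3-HKD liver 1 the difference was -0.02.
Tnfrsf1b (ENSMUSG00000028599), on chromosome 4 from 145213463 to 145246870, had 21.7, 16.3, 13.4 and 17.5 FPKM across METTL3-HKD livers 1 to 4 and 13.9, 12.4, 13.5 and 11.0 FPKM across METTL3-Flox livers 1 to 4. METTL3-HKD liver 3 lay within the METTL3-Flox range and the other METTL3-HKD livers lay above it. It differed by 0.42 on the log2 scale (95% interval 0.08 to 0.76, limma adjusted p = 0.0863), which did not pass, but it passed without METTL3-HKD liver 3 (0.54, adjusted p = 0.0309).
Tnfrsf12a (ENSMUSG00000023905), on chromosome 17 from 23675445 to 23677468, had 67.2, 72.8, 27.9 and 43.8 FPKM across METTL3-HKD livers 1 to 4 and 8.63, 5.96, 8.85 and 11.4 FPKM across METTL3-Flox livers 1 to 4. All METTL3-HKD livers lay far above the METTL3-Flox livers, and livers 3 and 4 were the lower of the METTL3-HKD group. The mean was 6.09 times as high (52.9 ± 20.9 against 8.70 ± 2.20 FPKM, SD, n = 4), with a log2 difference of 2.53 (SE 0.309, limma adjusted p = 0.00357), the largest of the 10 genes and rank 203 among the 16645 tested. It passed in all 15 alternatives.

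Ratios within each liver, in which the scaling between libraries nearly cancels, were used to test whether receptors responded unequally. The log2 ratio of Tnfrsf12a to Tnfrsf1a was -0.52 ± 0.512 in METTL3-HKD and -2.999 ± 0.350 in METTL3-Flox livers (SD, n = 4), a difference of 2.48 (two-sided exact permutation test, p = 0.0286, the smallest that 4 against 4 allow, adjusted p = 0.0476 over 5 pairs). In linear terms, Tnfrsf12a went from 0.125 of the Tnfrsf1a level to 0.696 of it. In METTL3-HKD liver 2 it exceeded Tnfrsf1a. The log2 ratio of Tnfrsf1b to Tnfrsf1a was -2.06 ± 0.0988 in METTL3-HKD and -2.43 ± 0.116 in METTL3-Flox livers (SD, n = 4), a difference of 0.37 with no overlap (exact permutation test, p = 0.0286, adjusted p = 0.0476 over 5 pairs).

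Among the inhibitors, Tnfaip3 (A20, ENSMUSG00000019850), on chromosome 10 from 19000910 to 19015657, had 4.89, 2.19, 2.01 and 3.16 FPKM across METTL3-HKD livers 1 to 4 and 1.40, 1.05, 1.63 and 0.877 FPKM across METTL3-Flox livers 1 to 4. The groups were separate, with METTL3-HKD livers 2 and 3 the closest to the METTL3-Flox range. The log2 difference was 1.19 (SE 0.292, limma adjusted p = 0.0286). It kept its sign but missed the threshold without METTL3-HKD liver 1 (0.94, adjusted p = 0.0543), METTL3-HKD liver 4 (1.15, adjusted p = 0.0626), METTL3-Flox liver 2 (1.13, adjusted p = 0.0717) or METTL3-Flox liver 4 (1.05, adjusted p = 0.0701).
Nfkbia (IκBα, ENSMUSG00000021025), on chromosome 12 from 55489410 to 55492647, had 42.9, 35.2, 27.8 and 35.3 FPKM across METTL3-HKD livers 1 to 4 and 25.1, 25.02, 31.7 and 26.8 FPKM across METTL3-Flox livers 1 to 4. METTL3-HKD liver 3 fell below METTL3-Flox liver 3. Its log2 difference was 0.37 (95% interval 0.05 to 0.68, limma adjusted p = 0.106) and passed without METTL3-HKD liver 3 (0.47, adjusted p = 0.0371). The log2 ratio of Tnfaip3 to Nfkbia was -3.55 ± 0.362 in METTL3-HKD and -4.37 ± 0.314 in METTL3-Flox livers (SD, n = 4), a difference of 0.82 with no overlap (exact permutation test, p = 0.0286, adjusted p = 0.0476 over 5 pairs). With a pseudocount of 1 FPKM this difference was 0.46 and the groups overlapped (exact permutation test, p = 0.0571).
Nfkbiz (IκBζ, ENSMUSG00000035356), a nuclear cofactor needed for a later set of NF-κB targets, lies on chromosome 16 from 55811375 to 55838899. It had 8.39, 6.39, 3.46 and 5.04 FPKM across METTL3-HKD livers 1 to 4 and 5.43, 2.33, 2.61 and 2.12 FPKM across METTL3-Flox livers 1 to 4. METTL3-Flox liver 1 stood apart from the rest of its group and above METTL3-HKD livers 3 and 4. The log2 difference was 0.91 (95% interval 0.15 to 1.67, limma adjusted p = 0.0974). Without METTL3-Flox liver 1 it was 1.21 (adjusted p = 0.0279), while the omission of METTL3-HKD liver 3 gave 1.13 (adjusted p = 0.0487).

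Of the subunit genes, Nfkb1 (p105 and p50, ENSMUSG00000028163), on chromosome 3 from 135584655 to 135691547, had 5.0, 4.09, 3.37 and 3.63 FPKM across METTL3-HKD livers 1 to 4 and 2.43, 2.37, 2.62 and 2.41 FPKM across METTL3-Flox livers 1 to 4. The METTL3-Flox livers were nearly equal (SD 0.113 FPKM), and all METTL3-HKD livers lay above them. Nfkb1 was higher by 0.67 on the log2 scale (SE 0.132, limma adjusted p = 0.0136), and it passed in all 15 alternatives.
Nfkb2 (p100 and p52, ENSMUSG00000025225), on chromosome 19 from 46304737 to 46312090, had 8.56, 5.41, 5.18 and 5.14 FPKM across METTL3-HKD livers 1 to 4 and 3.77, 3.42, 3.76 and 2.51 FPKM across METTL3-Flox livers 1 to 4. The groups were separate, and METTL3-HKD liver 1 stood apart from the other METTL3-HKD livers. Nfkb2 was higher by 0.82 on the log2 scale (SE 0.195, limma adjusted p = 0.0264). It fell just short without METTL3-HKD liver 2 (adjusted p = 0.0506), METTL3-Flox liver 2 (0.0570), METTL3-Flox liver 3 (0.0544) or METTL3-Flox liver 4 (0.0601). On the opposite strand, Psd shares 6.52% of the exon bases of Nfkb2 at a mean of 0.310 and 0.140 FPKM, and AC114539.1, not analysed here, shares 11.6%. The strand setting of the counting is not given in the sources used here, so Nfkb2 may hold reads of both.
Relb (ENSMUSG00000002983), on chromosome 7 from 19606217 to 19629438, had 2.88, 2.76, 1.21 and 1.48 FPKM across METTL3-HKD livers 1 to 4 and 1.34, 0.701, 1.08 and 0.560 FPKM across METTL3-Flox livers 1 to 4. Only METTL3-HKD liver 3 lay within the METTL3-Flox range. The log2 difference was 1.07 (95% interval 0.31 to 1.84, limma adjusted p = 0.0621), which passed without METTL3-HKD liver 3 (1.29, adjusted p = 0.0346) or METTL3-Flox liver 1 (1.26, adjusted p = 0.0491). Unequal change among the subunits was not detected. The log2 ratio to Nfkb1 differed between groups by 0.14 for Nfkb2 (exact permutation test, p = 0.486, adjusted p = 0.486 over 5 pairs) and by 0.40 for Relb (exact permutation test, p = 0.229, adjusted p = 0.286).

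**Figure D2:**
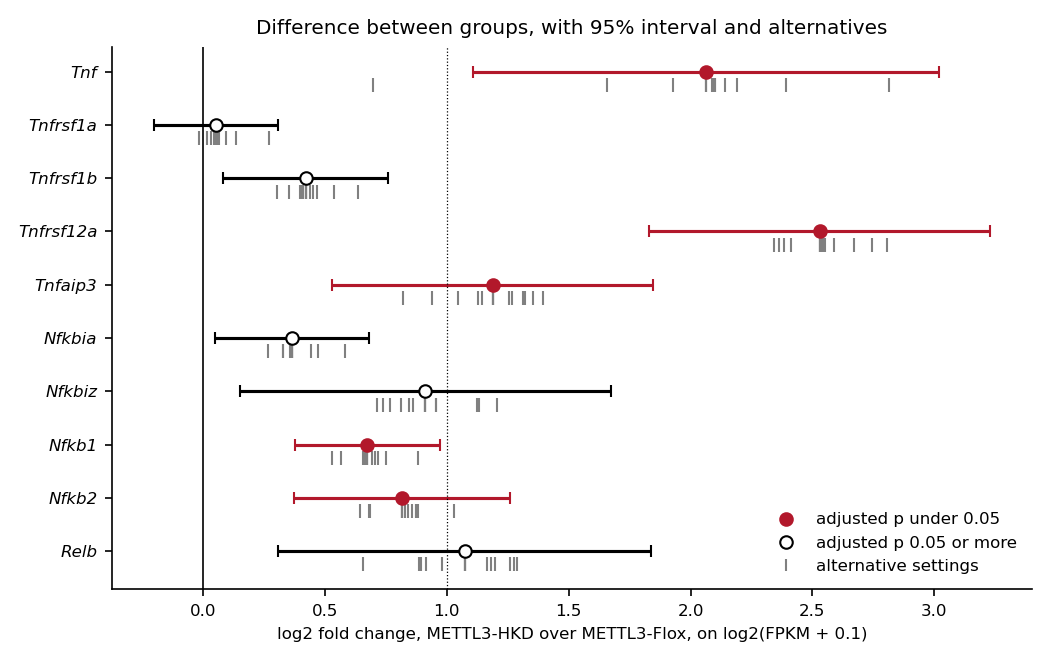
Log2 fold change of METTL3-HKD over METTL3-Flox livers on log2(FPKM + 0.1) for each gene, with its 95% interval from limma (circles and bars), and the value under each alternative as grey ticks. Filled red circles had an adjusted p under 0.05, the dotted line marks a log2 difference of 1, and Tnfrsf1a is centred near 0 (0.05) while Tnfrsf12a is farthest right (2.53).

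The order of levels was similar in the groups, with Tnfrsf1a first and Tnf last. Tnfrsf12a was the exception, as it ranked 4 of 10 in METTL3-Flox livers, below Tnfrsf1b in 3 of 4 livers, and 2 of 10 in METTL3-HKD livers, above Nfkbia in 4 of 4 livers. In METTL3-HKD livers, neighbours in this order whose ranges overlapped were Tnfrsf1a and Tnfrsf12a, Tnfrsf12a and Nfkbia, and each neighbouring pair from Nfkb2 through Nfkbiz, Nfkb1 and Tnfaip3 to Relb. In METTL3-Flox livers they were Tnfrsf1b and Tnfrsf12a, Nfkb2 and Nfkbiz, Nfkbiz and Nfkb1, and Tnfaip3 and Relb.

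The genes also varied from liver to liver within the METTL3-HKD group. METTL3-HKD liver 1 was the highest of its group in 9 of the 10 genes, the exception being Tnfrsf12a, and METTL3-HKD liver 3 was the lowest in 8 of 10, the exceptions being Tnf and Nfkb2. Leukocyte markers differed between the groups and between the livers. Of 8 neutrophil markers, 7 rose (limma), none was at 0 in all livers of a group, and their summed level was 1623, 379, 330 and 544 FPKM across METTL3-HKD livers 1 to 4 against 12.8 to 44.8 FPKM in METTL3-Flox livers. Among METTL3-HKD livers, liver 1 was again the highest and liver 3 the lowest. In the METTL3-Flox livers the order was mixed. Liver 3, with the lowest neutrophil sum (12.8 FPKM), was the highest of its group for Tnf, Tnfaip3, Nfkbia and Nfkb1. Liver 1, with the highest sum (44.8 FPKM), was the highest for Tnfrsf1a, Tnfrsf1b, Nfkbiz, Nfkb2 and Relb, but had Tnf at 0. Of 4 monocyte markers, 3 rose, with sums of 24.8 to 94.6 FPKM against 1.93 to 5.63 FPKM. Of 8 markers of Kupffer cells and macrophages, 4 fell (Clec4f, Vsig4, Timd4 and Cd5l) and none rose, with sums of 83.2 to 175 FPKM against 164 to 380 FPKM. The part of these cells in the levels of Tnf, Tnfrsf1b and the other genes was not tested. Without METTL3-HKD liver 1, the log2 difference was 1.93 for Tnf (adjusted p = 0.0474), 2.38 for Tnfrsf12a (adjusted p = 0.00876), 0.57 for Nfkb1 (adjusted p = 0.0259) and 0.64 for Nfkb2 (adjusted p = 0.0445), all still past the threshold, while Tnfaip3 missed it (0.94, adjusted p = 0.0543).
Among the other cells, 3 of 4 cholangiocyte markers rose (sums of 7.79 to 13.9 against 3.19 to 6.10 FPKM) and of 4 stellate cell markers Des rose and Lrat fell (6.84 to 14.9 against 6.85 to 11.4 FPKM). None of the 6 hepatocyte markers (25864 to 36734 against 32997 to 38750 FPKM), the 5 of sinusoidal endothelium (43.6 to 50.3 against 46.8 to 56.4 FPKM), the 3 tested of 6 T and NK cell markers (sums of all 6 of 0.496 to 2.50 against 0.722 to 1.84 FPKM) and the 2 tested of 4 B cell markers (sums of all 4 of 0.369 to 0.845 against 0.415 to 0.716 FPKM) passed. The hepatocyte markers had the highest sum of all lists in every liver. All 6 had a lower mean in METTL3-HKD livers, with a list median log2 difference of -0.37. Alb, the most abundant of them, had a difference of -0.03.

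**Figure D3:**
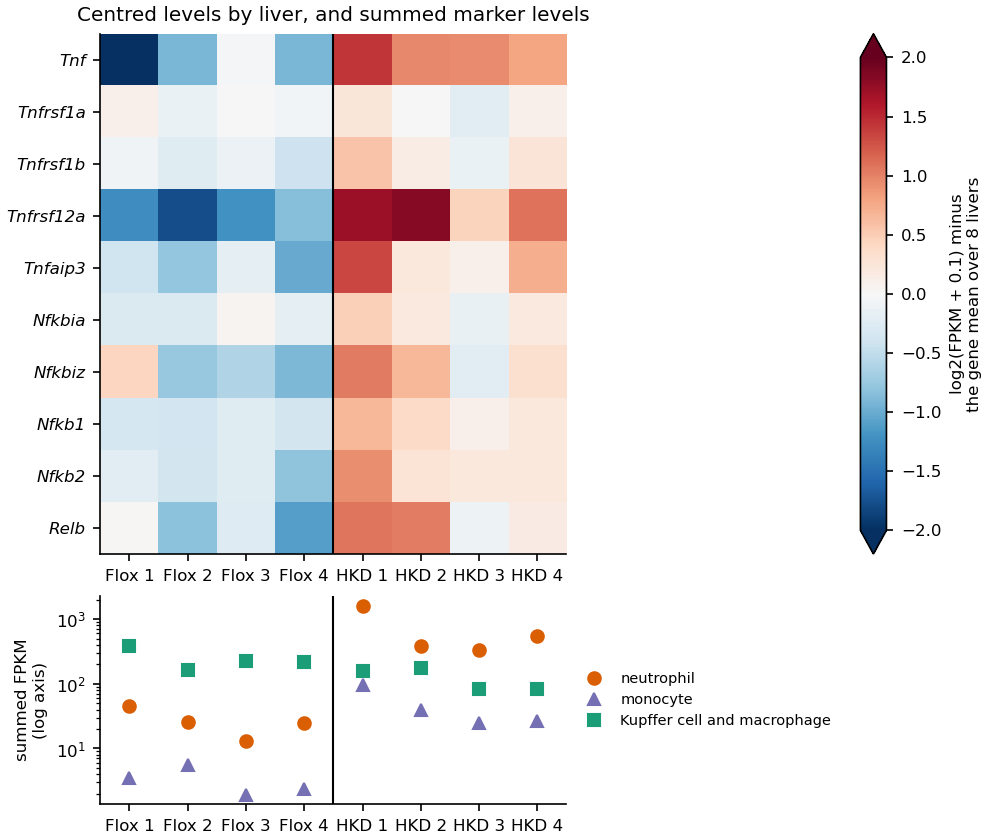
Top, log2(FPKM + 0.1) of each gene minus its mean over the 8 livers, by colour (red above, blue below, limited to 2 in either direction). Bottom, summed FPKM of the neutrophil, monocyte and Kupffer cell lists in the same livers on a log axis. METTL3-HKD liver 1 holds the deepest red in most genes and the highest neutrophil sum (1623 FPKM).

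The other genes of the pathway were taken from 7 lists of 104 genes, of which 88 were tested, 23 rose and 2 fell, against 9.05% and 6.63% of all tested genes. When scaled to the reads on genes, 30 rose and neither fall kept its call, at which setting 2303 of all 16645 tested genes rose and 374 fell. The calls of both genes that fell, Rbck1 and Irf1, were lost in 7 of 15 alternatives, namely this scaling, no trend, and the omission of METTL3-HKD liver 1 or 4 or of METTL3-Flox liver 2, 3 or 4. With no minimum, with a replicate block or without METTL3-HKD liver 2, only 1 pathway gene was called lower. At least 1 of the 2 calls was therefore lost there as well. Over the 88 tested genes, the groups did not overlap in 24 with the METTL3-HKD livers on top, against 12.7% of all tested genes. In 4 the METTL3-Flox livers were on top without overlap, against 9.95%. Of the further TNF family ligands, 2 of 8 tested rose, Ltb and Tnfsf14 (LIGHT, with 1.16 against 0.242 FPKM). Tnfsf12, which encodes the TWEAK ligand of Tnfrsf12a, had 4.29 against 4.69 FPKM and a log2 difference of -0.15 (limma adjusted p = 0.674). Tnfsf10 (TRAIL), the ligand of the death receptor Tnfrsf10b, had 0.772 against 1.82 FPKM, with the METTL3-HKD livers all below the METTL3-Flox livers, and a log2 difference of -1.16 that did not pass (limma adjusted p = 0.0511). The median of the list was 0.70, but no tested ligand lay near it, as its neighbours were Tnfsf13 (0.10) and Tnfsf9 (1.31). Tnfsf9 (0.421 against 0.0975 FPKM) and Tnfsf18 (0.266 against 0.0159 FPKM), neither called, reached the filter of 0.1 FPKM only through the METTL3-HKD livers. This median therefore does not show a shift of the ligand family.
Of 19 tested receptors, 5 rose and none fell, with a list median of 0.25. These were Eda2r (1.06 against 0.129 FPKM, log2 difference 2.37), the decoy-type receptors Tnfrsf22 (0.605 against 0.198 FPKM, 1.26) and Tnfrsf23 (2.21 against 0.372 FPKM, 2.23), the death receptor Tnfrsf10b (0.394 against 0.120 FPKM) and Tnfrsf9 (4-1BB, 0.582 against 0.0727 FPKM). Fas, the receptor of Fas ligand, had a log2 difference of -0.12 (limma adjusted p = 0.660). Ltbr, the receptor of lymphotoxin and LIGHT, lies on chromosome 6, as Tnfrsf1a does, from 125306571 to 125313885. It had 60.9 against 72.6 FPKM, with every METTL3-HKD liver below every METTL3-Flox liver, and did not pass (limma adjusted p = 0.0634).
In the receptor complex, 2 of 19 genes rose, Traf3, which restrains NIK (log2 difference 0.61), and Casp8, the initiator caspase of death receptors (0.50). Rbck1, a subunit of the linear ubiquitin ligase, fell (-0.29), and the list median was 0.09. Read against 9.05% of all tested genes called higher and 6.63% called lower, these counts lie near the background. Of 6 IKK and NIK genes, Map3k14 (NIK) rose (0.55, limma adjusted p = 0.0413) and the others did not pass, with a list median of 0.04. The IKK genes Chuk and Ikbkb had log2 differences of 0.01 and -0.01. Ikbkg (NEMO), the regulatory subunit of IKK, had 9.98 against 12.2 FPKM, with the METTL3-HKD livers all below the METTL3-Flox livers, and a difference of -0.29 (limma adjusted p = 0.0569).
Among the remaining subunit and IκB genes, 2 of 6 rose. Nfkbid (IκBNS), a nuclear IκB protein like Nfkbiz, had 1.55 against 0.164 FPKM, a log2 difference of 2.50 (SE 0.419, limma adjusted p = 0.00871), and Nfkbie (IκBε) had a difference of 0.48. Rela, the gene of p65, had 24.0 against 21.1 FPKM and did not pass (limma adjusted p = 0.219). Its groups did not overlap but nearly touched, with 22.89 FPKM in the lowest METTL3-HKD liver and 22.86 FPKM in the highest METTL3-Flox liver. The list median was 0.41. Of 9 tested genes of other inhibitors and of mRNA decay, only Tnip1, a partner of A20, rose (0.57, with overlapping groups). The list median was 0.20. Zfp36 (tristetraprolin), which speeds the decay of Tnf mRNA, had 31.0 against 21.9 FPKM (limma adjusted p = 0.180).
Of 21 tested textbook targets of NF-κB, 10 rose and Irf1 fell (-0.44, with overlapping groups), with a median of 0.96. The genes that rose were the chemokines Cxcl2 (35.9 against 0.279 FPKM) and Ccl2 (22.2 against 2.07 FPKM), the cytokines Il1b (34.1 against 1.83 FPKM), Il6 and Csf1, the adhesion molecule Sele (2.34 against 0.0976 FPKM), the prostaglandin synthase Ptgs2, the protease Mmp9 (7.42 against 0.528 FPKM), and the survival and stress genes Bcl2l1 (16.9 against 8.53 FPKM) and Gadd45b (14.4 against 3.09 FPKM). Few reads in METTL3-Flox livers stood behind several of the genes that rose. The highest count in any of these livers was 3 for Il6, 4 for Ptgs2 and 9 for Sele. It was 6 for Tnfrsf9, 10 for Nfkbid, 12 for Tnfsf14 and 21 for Cxcl2. The fold changes of such genes depend on the pseudocount, and Il6, Ptgs2, Sele and Tnfrsf9 reached the filter of 0.1 FPKM only through the METTL3-HKD livers. Other targets did not pass, with log2 differences of 0.24 for the chemokine Cxcl1, 0.05 for the mitochondrial dismutase Sod2, 0.45 for Icam1, -0.51 for Lcn2 and -0.72 for Saa3. Cxcl2, Il1b and Mmp9 are also abundant in neutrophils and monocytes, whose markers rose in the same livers. The part of these cells in the levels of the targets was not tested.

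**Figure D4:**
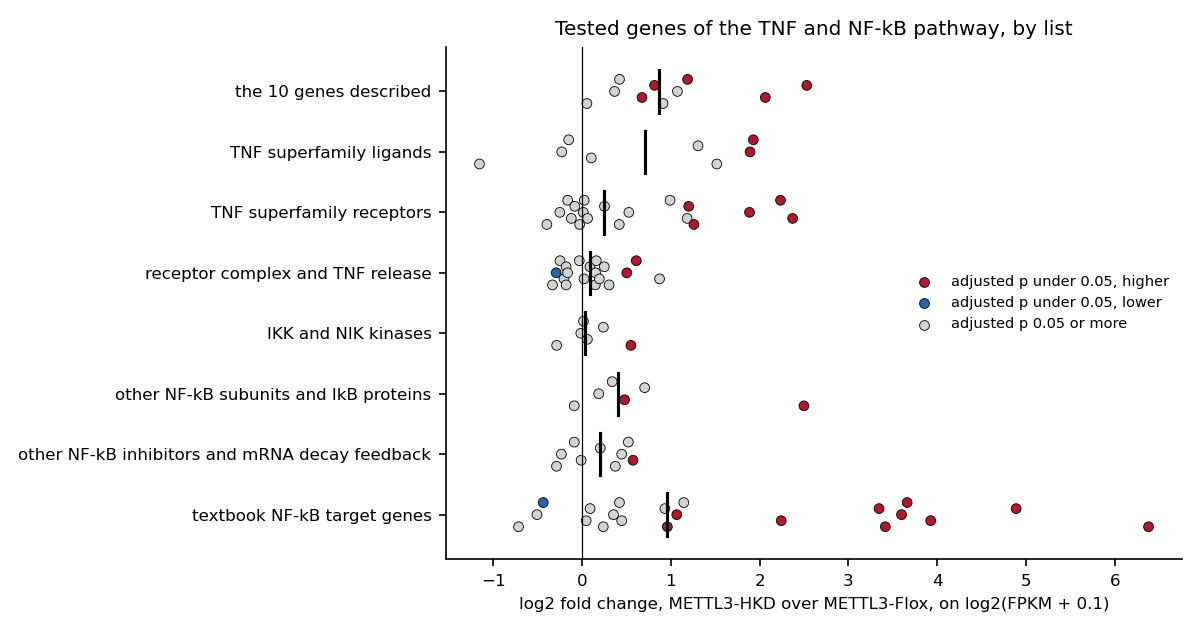
Log2 fold change of METTL3-HKD over METTL3-Flox livers on log2(FPKM + 0.1) for each tested gene, 1 point per gene, in the 10 genes described and in the 7 pathway lists, with the list median as a black line. Red points rose and blue points fell (adjusted p under 0.05). The targets reach 6.38 (Cxcl2), while the medians of the kinase list and the receptor complex lie at 0.04 and 0.09.

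Genes whose pattern over the 8 livers was closest to that of a member were found by the root mean square difference between centred log2 levels, among 10694 genes whose mean reached 1 FPKM. For Tnf, whose own SD over the livers was 1.27, they were Ccrl2, a chemerin receptor (0.299), the lincRNA Gm26809 (0.391) and Phlda3, a p53 target (0.457). For Tnfaip3, with an SD of 0.774, they were Tmem173 (STING, 0.183), Tlr4, the receptor of lipopolysaccharide (0.183), and Fam111a (0.217). For Nfkbia, with an SD of 0.277, they were Plekhm2 (0.0842), Champ1 (0.0926) and March7 (0.0927). These distances describe 8 livers of 2 groups and carry no test.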

How the data were processed

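The livers, 4 METTL3-HKD and 4 METTL3-Flox, were grouped by their labels, and none of the 8 libraries was left out. The authors deposited 1 table of FPKM with gene lengths, on GRCm38 (mm10) by the submitters' processing notes. The aligner, counter, annotation and strand setting are not given in the sources used here. Whole reads were rebuilt from FPKM and gene length (tolerance 0.01 read, 100% of non-zero values). Read numbers show counting error only, whereas the 95% intervals come from limma and rest on the spread between mice. Coordinates are those of the deposited table, and 9 of the 10 genes had the same ones in GENCODE M21. Symbols of 27 genes that had turned into dates were restored by identifier.

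Genes whose mean reached 0.1 FPKM were compared on log2(FPKM + 0.1) with limma 3.58.1 (trend, two-sided, Benjamini-Hochberg adjustment over 16645 genes) in R 4.3.3. Exact permutation tests used scipy 1.17.1 in Python 3.11.15. Within-liver ratios were tested for 5 pairs. On data simulated for 16297 genes, 178 of 200 changed and 15 unchanged genes were called. This simulation gave every gene the same relative spread between livers beyond counting error. It changed only genes whose mean reached 1 FPKM, so it does not give the recovery of lower or more variable genes. The members and lists were chosen with earlier results of these data known. Named genes are the 10 members, Mettl3, list genes past the threshold, others of these lists where their role needs a value, and the 3 nearest patterns of Tnf, Tnfaip3 and Nfkbia. Alternatives were a pseudocount of 1 FPKM, a minimum of 1 FPKM, no minimum, scaling to reads on genes, voom on rebuilt reads, no trend, a replicate block and the omission of each liver.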

Additional observations from a re-analysis of the deposited data

Results flagged for a closer look

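In 2 of the 20 groups of 4 livers (10 genes in both genotypes), 1 liver stood apart by Dixon's criterion, where chance flags about 1 group in 20. The highest METTL3-Flox liver for Nfkbiz, liver 1, had 5.43 FPKM, a gap of 0.851 of the group's range. The highest METTL3-HKD liver for Nfkb2, liver 1, had 8.56 FPKM, a gap of 0.919 of the range. Without the former liver, Nfkbiz passed the adjusted threshold of limma, and without the latter, Nfkb2 stayed past it.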

How the results depend on the processing

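All 14 alternatives run for Tnf (adjusted p 0.0105 to 0.0474) and all 15 for Tnfrsf12a (0.000858 to 0.0168) and Nfkb1 (0.00976 to 0.0413) stayed past the limma threshold, while Tnfaip3 (0.0177 to 0.0717) and Nfkb2 (0.0155 to 0.0601) passed in 11 of 15. The low reads of Tnf in METTL3-Flox livers limit its fold, which went from 0.70 with a pseudocount of 1 FPKM to 2.82 with voom on the log2 scale, and Tnf was not tested with a minimum of 1 FPKM. Of 289 alternative values, 206 kept their direction and side of the threshold or, if a count, stayed near the main count. A further 36 lost a call, 10 gained one, 36 counts moved and 1 turned in sign (Tnfrsf1a, -0.018 without METTL3-HKD liver 1, the cause was not tested). The lost calls include every omission and sign flip of the ratios that had passed, where the smallest possible p lies above 0.05.

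Scaled to reads on genes, Tnfrsf1b (0.64, adjusted p = 0.0366), Nfkbiz (1.12, 0.0499) and Relb (1.28, 0.0400) passed, 8 of the 10 genes were called, 6 of them with a log2 difference of at least 1, 0 pathway genes fell, and 2303 of all genes rose and 374 fell, a higher share of 86.0% against 57.7%. With a pseudocount of 1 FPKM, 1 of the 10 genes passed both thresholds and the ratio of Tnfaip3 to Nfkbia differed by 0.46. With a minimum of 1 FPKM, which tests fewer genes, 15 pathway genes rose and 4 fell. Without a minimum 1 pathway gene fell (682 of all genes), and without the trend 0 fell.

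The labels do not say whether same-numbered livers form pairs. Their deviations from the group means were hardly correlated over the genes (r = 0.07, -0.08, -0.01 and -0.03), which cannot exclude a pairing. With a replicate block, Nfkbiz passed (0.91, adjusted p = 0.0421), 6 of the 10 genes and 3 with a log2 difference of at least 1 were called, 19 pathway genes rose and 1 fell, and 971 of all genes rose and 645 fell. By exact sign flips over pairs, whose smallest p is 0.125, the ratio differences of 0.37 for Tnfrsf1b, 2.48 for Tnfrsf12a and 0.82 for Tnfaip3 could not pass.

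Leaving out each liver in turn gave log2 differences of 1.66 to 2.39 for Tnf, -0.02 to 0.14 for Tnfrsf1a, 0.30 to 0.54 for Tnfrsf1b, 2.34 to 2.80 for Tnfrsf12a, 0.94 to 1.35 for Tnfaip3, 0.27 to 0.47 for Nfkbia, 0.71 to 1.21 for Nfkbiz, 0.57 to 0.75 for Nfkb1, 0.64 to 0.88 for Nfkb2 and 0.89 to 1.29 for Relb. Between 3 genes (without METTL3-Flox liver 2 or liver 4) and 9 genes (without METTL3-HKD liver 3) were called, 2 to 5 of them with a difference of at least 1, the 5 without METTL3-HKD liver 3 or METTL3-Flox liver 1. Of the pathway genes, 18 to 28 rose and 0 to 4 fell, and of all genes 747 to 1659 rose and 355 to 1148 fell. The ratio differences were 0.31 to 0.40 for Tnfrsf1b, 2.28 to 2.67 for Tnfrsf12a and 0.67 to 0.95 for Tnfaip3, where an exact test of 4 against 3 cannot go below 0.0571.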
